A study of Homo sapiens with 2 samples.

Results

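The 9 genes described here are CLIP2 and its family relatives CLIP1 and CLIP4, the CLASP genes CLASP1 and CLASP2, the end-binding protein genes MAPRE1, MAPRE2 and MAPRE3, and STMN1. They were taken by symbol from a deposited table of 58735 genes, and all 9 were found. RNA was sequenced, after poly(A) selection, from the established line A2780, which derives from a human ovarian cancer. The shJAM3 library was labelled JAM3 knockdown and was described as coming from cells with stable knockdown of JAM3, which encodes junctional adhesion molecule C. The shControl library was labelled WT, and the design text describes empty-vector cells. That text speaks of siRNA where the titles carry the prefix sh, and neither the construct's sequence nor the number of clones is given in the sources used here. Each group had 1 library, so no difference below has a replicate check and no test of the conditions exists. The set was chosen by the FPKM ratio of shJAM3 to shControl, which is extreme for CLIP2, and by the shared role of the other genes, so the values of this comparison are given as a description.

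Microtubules grow and shrink mainly at their plus ends, and a set of proteins gathers on the growing tips. The end-binding proteins recognise the tip itself and recruit most of the others. CLIP proteins carry CAP-Gly domains that bind end-binding proteins and tubulin tails, and they link tips to dynactin and to membranes. CLASP proteins promote rescue and hold microtubules at the cell cortex. Stathmin 1 is not a tip tracker. It binds free tubulin dimers and favours shrinkage, and it is a cytosolic phosphoprotein that is abundant in many dividing tumour cells.

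The table holds FPKM, a level relative to gene length and library size, from which whole fragment numbers were recovered. The shJAM3 library held 16455079 fragments and the shControl library 15570262. JAM3 had 14 fragments in shJAM3 (0.154 FPKM) and 18 in shControl (0.215 FPKM), so its level was already low in shControl. The JAM3 FPKM ratio of shJAM3 to shControl was 0.716, with limits for counting error of 0.330 to 1.52. These limits include 1, so the labelled knockdown was not detectable in these counts. A JAM3 ratio below 0.330 lies outside the limits, which cover counting error only. Of 6 epithelial markers, KRT8, KRT18 and KRT7 were between 93.4 and 165 FPKM in both libraries, while EPCAM, PAX8 and KRT19 were at most 1.12 FPKM. The summed leukocyte markers were at 0.805 FPKM in shJAM3 and 2.40 in shControl, nearly all from CD14, with PTPRC at 0 in both. Fibroblast markers summed to 3.01 FPKM in shJAM3 and 3.97 in shControl, nearly all from PDGFRB, and endothelial markers to 0.442 in shJAM3 and 0.699 in shControl, with none measured. The part of such cells in the results was not tested. A gene counted as measured when its average across the libraries reached 1 FPKM, which gave 12214 genes, 10499 of them protein-coding. All 9 members passed. CLIP4 passed through its level in shControl, since it was below 1 FPKM in shJAM3.

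CLIP2 was by far the most different of these genes, and it was lower in shJAM3. It encodes a CAP-Gly linker protein best known from brain, which binds growing microtubule ends. It had 1384 fragments in shJAM3, against 5229 in shControl. Those numbers correspond to 11.3 FPKM in shJAM3 (10.8 to 12.0) and 46.5 FPKM in shControl (45.3 to 47.8), where brackets hold exact 95% Poisson limits. The FPKM ratio of shJAM3 to shControl was 0.244 (0.230 to 0.259), which is 4.10-fold lower in shJAM3. Brackets around a ratio hold exact 95% conditional binomial limits. All such limits cover counting error only, and fragments copied by PCR make them too narrow. In cells in bulk, fewer cells with the transcript and less transcript per cell cannot be told apart.

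On the scale log2(FPKM + 1), the CLIP2 difference between shJAM3 and shControl was -1.95. A difference of at least 1 in either direction on this scale was used as a 2-fold rule. CLIP2 was the only member past that rule, and 2.1% of all measured genes and 1.41% of measured protein-coding genes were past it on the lower side. No member was past it on the higher side, where 1.3% of all measured genes lay. CLIP2 ranked 5th from the lowest among 10499 measured protein-coding genes. Among protein-coding genes averaging 5 FPKM or more, the nearest below it were C11orf86 at -2.08 and GLIS2 at -2.02, and the nearest above it were HIST1H3B at -1.87 and SLC6A12 at -1.83. Likeness here means only a similar log2 difference between 2 libraries. An antisense gene covers 24.5% of the GLIS2 exon bases, and HIST1H3B belongs to a family of near-identical genes.

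CLIP2 (ENSG00000106665) occupies bases 74289475 to 74405943 of chromosome 7 (GRCh38, plus strand). Its annotated exons cover 7315 bases in 9 annotated transcripts with 8 distinct starts, and the gene-level values do not separate these. No other annotated gene shares an exon base with it, so fragments of an overlapping neighbour do not enter its count. The promoter window of CLIP2 is shown with those of CLIP1, a second member that was lower, and MAPRE1, a member that was higher, because the genes have a single RefSeq window each and differed in direction. Each runs 5′ to 3′ on the gene's strand, from 250 bases before to 50 bases after the RefSeq start (GRCh38.p14). Capitals mark the GC box GGGCGG and its reverse complement CCGCCC.
CLIP2, chr7:74289157-74289456, plus strand: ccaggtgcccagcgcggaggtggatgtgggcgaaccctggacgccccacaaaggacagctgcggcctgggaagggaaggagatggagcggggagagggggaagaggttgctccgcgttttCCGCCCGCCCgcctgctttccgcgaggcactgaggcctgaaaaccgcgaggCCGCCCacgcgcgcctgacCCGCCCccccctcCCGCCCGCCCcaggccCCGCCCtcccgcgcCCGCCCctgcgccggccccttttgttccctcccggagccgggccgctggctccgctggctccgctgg
CLIP1, chr12:122422620-122422919, minus strand: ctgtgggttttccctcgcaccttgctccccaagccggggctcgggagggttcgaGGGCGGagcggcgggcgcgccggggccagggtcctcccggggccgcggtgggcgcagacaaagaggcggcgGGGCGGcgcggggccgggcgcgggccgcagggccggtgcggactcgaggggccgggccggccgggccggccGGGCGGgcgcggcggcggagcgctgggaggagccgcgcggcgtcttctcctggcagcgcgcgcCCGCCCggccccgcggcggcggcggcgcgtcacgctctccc
MAPRE1, chr20:32819704-32820003, plus strand: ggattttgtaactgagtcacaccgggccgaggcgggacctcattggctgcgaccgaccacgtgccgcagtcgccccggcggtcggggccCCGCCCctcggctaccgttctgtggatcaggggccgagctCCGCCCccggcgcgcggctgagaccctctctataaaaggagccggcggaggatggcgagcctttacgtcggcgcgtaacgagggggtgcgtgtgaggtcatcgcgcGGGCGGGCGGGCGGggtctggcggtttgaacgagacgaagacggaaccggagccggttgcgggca

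The CLIP2 window held 8 GC boxes on both strands together, counting overlapping copies, the CLIP1 window 4 and the MAPRE1 window 5. Of 35116 RefSeq windows of the same length, 45.0% held at least 1, 9.06% at least 4, 5.14% at least 5 and 0.812% at least 8. The windows compared were not matched on GC. The CLIP2 window was 75.3% G or C, the CLIP1 window 84.0% and the MAPRE1 window 70.0%, against a median of 58.7% over all windows. The E-box CACGTG occurred in the MAPRE1 window and in neither CLIP window, and in 7.26% of all windows. The letters TATAAA or TTTATA likewise occurred in the MAPRE1 window only among these 3, and in 11.5% of all windows. All 9 members had at least 1 RefSeq window, 17 in all. CLASP1, also lower in shJAM3, has a single window too. That window is not shown, and it held 0 GC boxes and was 57.3% G or C. The RefSeq start of CLIP2 lies 68 bases upstream of the deposited gene start. A match of letters is a description and not a site in use.

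CLIP1 and CLIP4 were also lower in shJAM3, by less than CLIP2. CLIP1 encodes the longer founding member of the family, which tracks growing tips and binds dynactin. It had 5.91 FPKM in shJAM3 and 9.66 in shControl, a ratio of 0.611 (0.576 to 0.649) from 1829 and 2755 fragments. CLIP4, a less studied CAP-Gly protein, had 0.902 FPKM in shJAM3 and 1.49 in shControl, a ratio of 0.605 (0.475 to 0.769) from 117 and 178 fragments. Both ratios lay below 1 beyond counting error. The fourth relative, CLIP3, was at 0.413 FPKM in shJAM3 and 0.431 in shControl and was not measured by the rule above.

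Summed FPKM of CLIP1, CLIP2, CLIP3 and CLIP4 was 18.6 in shJAM3 and 58.1 in shControl, a gap that lay mostly in CLIP2. CLIP2 made up 61.1% of that sum in shJAM3 (59.4 to 62.8) and 80.1% in shControl (79.3 to 80.8), with delta-method 95% limits from the fragment numbers. CLIP1 made up 31.8% in shJAM3 (30.3 to 33.3) and 16.6% in shControl (16.0 to 17.3). Per base of gene length, CLIP2 was therefore 1.92 times CLIP1 in shJAM3 (1.79 to 2.06) and 4.82 times CLIP1 in shControl (4.60 to 5.04). By FPKM, CLIP2 stayed the leading CLIP transcript in both libraries. In shJAM3 that lead depends on the gene lengths, since CLIP2 had 1384 fragments there and CLIP1 had 1829. These shares rest on deposited gene lengths, which join all annotated exons. The length of CLIP1, 18559 bases, exceeds that of 98.9% of measured protein-coding genes, so its FPKM is set low relative to genes with shorter models.

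**Figure D1:**
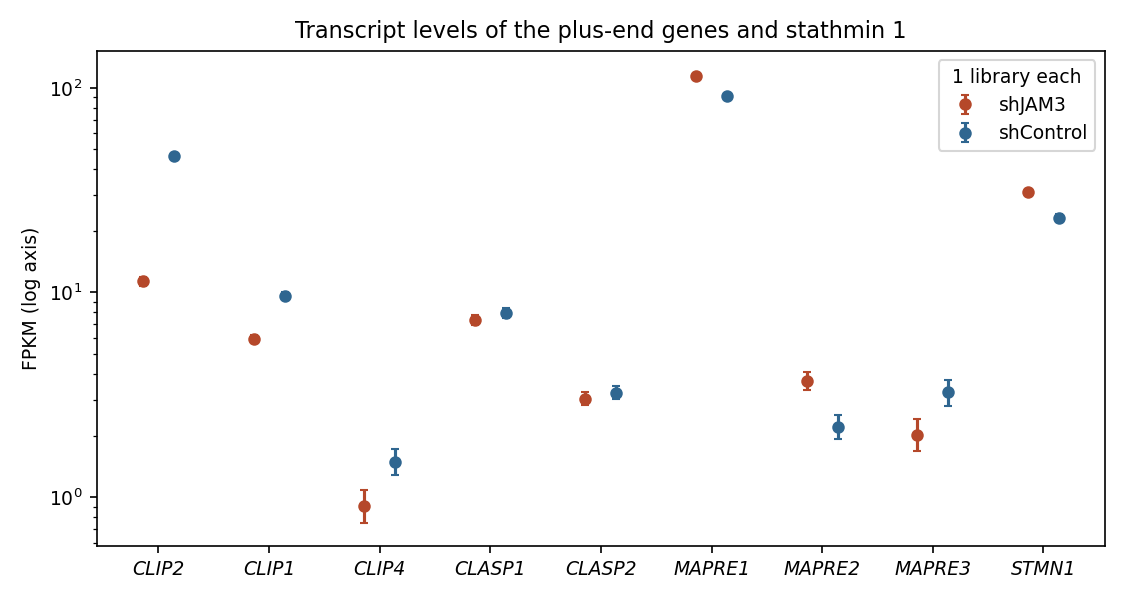
Transcript level of each of the 9 genes in FPKM on a log axis, with 1 library per group, shJAM3 left of shControl. Bars are exact 95% Poisson limits for counting error, and CLIP2 shows the widest gap, 11.3 FPKM in shJAM3 against 46.5 in shControl.

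The CLASP genes were nearly level between the libraries. CLASP1 had 7.32 FPKM in shJAM3 and 7.95 in shControl, a ratio of 0.922 (0.854 to 0.995). Scaled to the total of recovered fragments, its limits were 0.877 to 1.02, which include 1. CLASP2 had 3.03 FPKM in shJAM3 and 3.24 in shControl, a ratio of 0.937 (0.846 to 1.04), so a difference was not detectable at this depth. CLASP1 and CLASP2 encode paralogs that stabilise microtubules at the cortex and at the Golgi. CLASP1 was 2.42 times CLASP2 in shJAM3 (2.21 to 2.64) and 2.46 times in shControl (2.24 to 2.69), so the limits of their proportion overlapped between the libraries.

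The end-binding protein genes went in different directions. MAPRE1 encodes EB1, the tip-binding protein on which CLIP and CLASP proteins depend, and it was the most abundant of the 9 transcripts in both libraries. It had 114.6 FPKM in shJAM3 and 90.8 in shControl, a ratio of 1.26 (1.21 to 1.32) from 5014 and 3657 fragments. MAPRE2, which encodes EB2, had 3.69 FPKM in shJAM3 and 2.20 in shControl, a ratio of 1.67 (1.41 to 1.99). MAPRE3, which encodes EB3 and is known mainly from neurons and muscle, had 2.02 FPKM in shJAM3 and 3.25 in shControl, a ratio of 0.621 (0.489 to 0.785). MAPRE2 and MAPRE3 thus stood in opposite order, with MAPRE2 at 1.83 times MAPRE3 in shJAM3 (1.49 to 2.26) and 0.678 times in shControl (0.553 to 0.832). MAPRE1 took 95.3% of the summed FPKM of these 3 genes in shJAM3 and 94.3% in shControl.

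STMN1 was higher in shJAM3. It had 30.9 FPKM in shJAM3 and 23.1 in shControl, a ratio of 1.34 (1.27 to 1.41) from 3229 and 2221 fragments. A microRNA gene on the same strand covers 1.05% of its exon bases and had no fragment in either library. The 4 processed pseudogenes in the table named after MAPRE1 or STMN1 also had no fragment in either library. The antisense gene CLIP1-AS1, which shares 2.53% of the CLIP1 exon bases, had 10 fragments in shJAM3 and 2 in shControl, a ratio of 4.61 (0.981 to 43.2). These fragments are few beside those of CLIP1, and no strand-marking step appears in the labels' protocol, so fragments from the shared stretch cannot be assigned to either gene.

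The order of the levels differed between the libraries at several places. In shJAM3 the order from the highest FPKM was MAPRE1, STMN1, CLIP2, CLASP1, CLIP1, MAPRE2, CLASP2, MAPRE3 and CLIP4. In shControl it was MAPRE1, CLIP2, STMN1, CLIP1, CLASP1, MAPRE3, CLASP2, MAPRE2 and CLIP4. All 8 adjacent pairs in shJAM3 differed beyond counting error, as did all in shControl except MAPRE3 and CLASP2, with a ratio of 1.00 (0.848 to 1.18). Such limits leave out error in the deposited gene lengths, on which every comparison between genes rests. In shJAM3, CLASP1 stood above CLIP1 by FPKM with fewer fragments, 1350 against 1829. CLIP2 was 0.367 times STMN1 in shJAM3 (0.344 to 0.391) and 2.02 times STMN1 in shControl (1.92 to 2.12). CLIP2 was 0.0990 times MAPRE1 in shJAM3 (0.0932 to 0.105) and 0.513 times MAPRE1 in shControl (0.491 to 0.535).

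Of the 9 members, 3 were higher and 6 lower in shJAM3, with 95% limits that excluded 1 for 8 of them. That share is read against 66.6% of all measured genes and 71.3% of measured protein-coding genes, so limits that exclude 1 were common. The 3 higher members were MAPRE1, MAPRE2 and STMN1, against 33% of all measured genes with limits above 1. The 5 lower ones were CLIP2, CLIP1, CLIP4, CLASP1 and MAPRE3, against 33.6% with limits below 1. The median log2 difference of the members was -0.10, beside 0.00 for all measured genes. Summed over the 9 genes, FPKM was 179.7 in shJAM3 and 188.2 in shControl, since the higher MAPRE1 and STMN1 nearly offset the lower CLIP2.

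**Figure D2:**
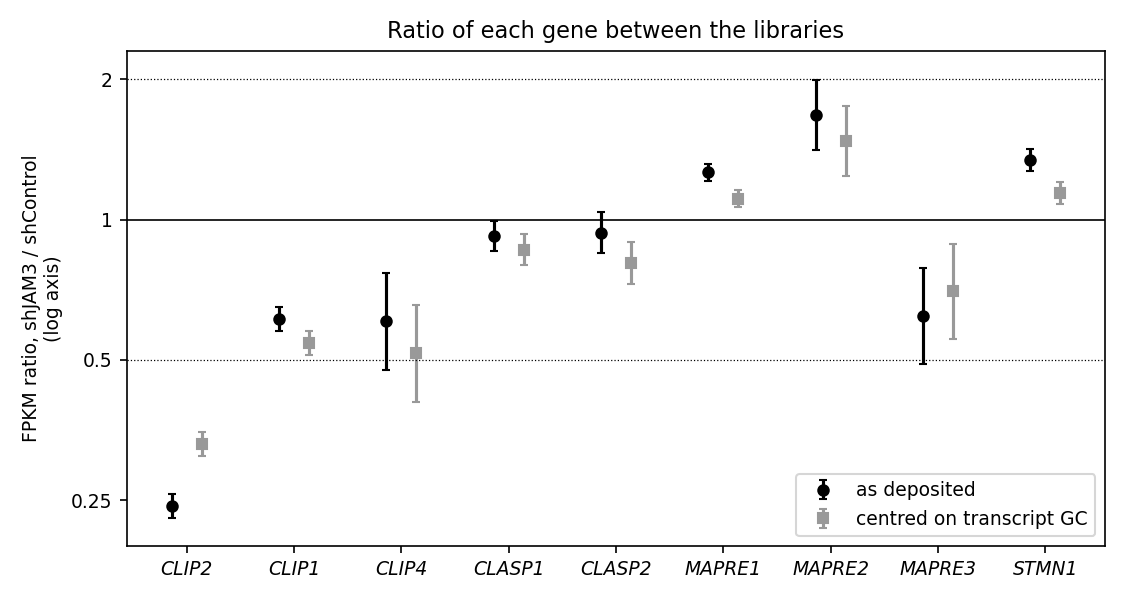
FPKM ratio of shJAM3 to shControl for each gene on a log axis, as deposited (circles) and after centring on transcript GC (squares), with 95% limits for counting error. Dotted lines mark ratios of 0.5 and 2, and of the points only those of CLIP2 lie beyond them, at 0.244 as deposited and 0.330 after centring.

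GC content of the transcripts moved with the ratio across the whole table, and CLIP2 is GC-rich. Over 20 groups of measured protein-coding genes ordered by the GC of the longest annotated transcript, the median log2 difference was 0.24 for the lowest GC and -0.50 for the highest. The CLIP2 transcript is 63.3% G or C, above 92.3% of measured protein-coding genes, and the MAPRE3 transcript is 57.1%. The other 7 members lie between 39.3% and 47.4%, below the median of 49.1%. In the GC group of CLIP2, the median was -0.38 over 525 genes, and 4.38% of them were past the 2-fold rule on the lower side. Only GLIS2 was lower than CLIP2 in that group. After centring on GC, the CLIP2 log2 difference was -1.56, still past the rule.

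Centring on GC moved the other members by up to 0.19. CLIP1 was at -0.76 after centring and -0.63 before. CLIP4 was at -0.58 after and -0.39 before. Both CLIP1 and CLIP4 lay below the 10th percentile of their own GC groups, which was -0.32 for CLIP1 and -0.26 for CLIP4. MAPRE1 was at 0.18 after centring and 0.33 before, and STMN1 at 0.22 after and 0.41 before. The centred FPKM ratios were 1.11 (1.06 to 1.16) for MAPRE1, 1.14 (1.08 to 1.20) for STMN1 and 1.47 (1.24 to 1.75) for MAPRE2. For MAPRE3 the centred ratio was 0.702 (0.553 to 0.888), and for CLASP2 it was 0.807 (0.729 to 0.894), which excludes 1. No member changed direction.

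**Figure D3:**
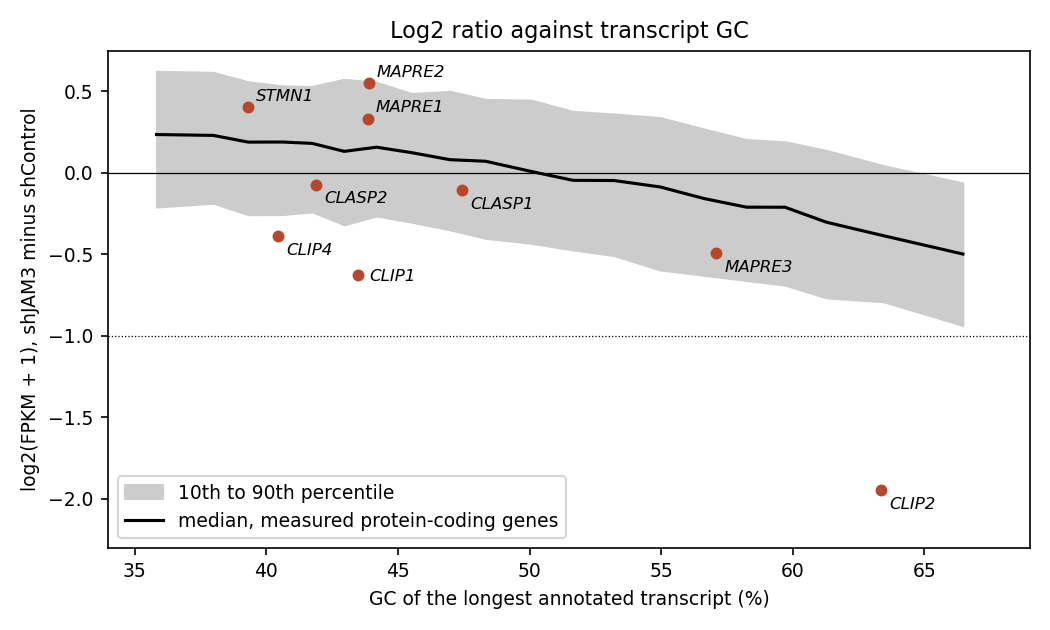
Log2(FPKM + 1) difference, shJAM3 minus shControl, against the GC percentage of the longest annotated transcript. The line and band are the median and the 10th to 90th percentile of measured protein-coding genes in 20 GC groups, and CLIP2 at 63.3% GC and -1.95 lies far below the band.

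None of the other listed plus-end genes, or of the listed cortical and binding partners of CLIP and CLASP proteins, was past the 2-fold rule. Of 29 other genes of plus-end tracking and tip regulation, 26 were measured, 10 higher and 16 lower, with a median log2 difference of -0.16. Centred on GC, 15 of the 26 were lower and the median was -0.02. Of all 12214 measured genes, 6046 were lower as deposited and 5965 after centring. The plus-end genes included TACC1, of a family whose proteins bind the polymerase CKAP5, at 8.29 FPKM in shJAM3 and 12.9 in shControl. The depolymerising kinesin gene KIF18A was at 5.07 FPKM in shJAM3 and 3.35 in shControl. Of 19 cortical anchoring and binding partners of CLIP and CLASP proteins, 17 were measured, 8 higher and 9 lower, with a median of -0.02. With centring on GC, 14 of the 17 were lower and the median was -0.15. LIMK1, a kinase that acts on actin through cofilin, was furthest from 0, at 4.51 FPKM in shJAM3 and 8.73 in shControl. PHLDB1, a cortical adaptor that binds CLASP proteins, was at 0.999 FPKM in shJAM3 and 1.85 in shControl, and counted as measured through shControl.

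The motor complex that CLIP proteins help load was mixed. Of 25 dynein, dynactin and LIS1 genes, 23 were measured, 10 higher and 13 lower, with a median of -0.04, beside 6046 of all 12214 measured genes lower. The count of lower genes was also 13 with centring on GC, and the median was -0.07. The dynein light chain gene DYNLL1 was at 48.4 FPKM in shJAM3 and 26.0 in shControl, a ratio of 1.86 (1.73 to 2.00). DCTN1, which holds the CAP-Gly domain of dynactin, was lower at -0.44 but was not among the 4 members furthest from 0. Those were DYNLL1, DCTN6, DCTN5 and DCTN4, with ratios of 1.86, 1.78, 0.612 and 1.50. Other annotated genes cover 25.3% of the DCTN6 and 26.0% of the DCTN5 exon bases.

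STMN1 can be set beside genes of related function. Of 15 other stathmins, severing enzymes and depolymerising kinesins, 9 were measured, 7 higher and 2 lower, with a median of 0.19, or 0.09 after centring on GC. STMN3 was at 1.25 FPKM in shJAM3 and 0.816 in shControl, and KIF2A at 16.7 in shJAM3 and 12.9 in shControl. Tubulins were mostly higher, 13 of 14 measured out of 22 listed, with a median of 0.46, beside 6167 of all 12214 measured genes higher. The list holds the subunits of the dimers that stathmin binds. It also holds TUBG1, TUBG2, TUBD1 and TUBE1, which are not among those subunits. Limits above 1 were found for 11 of the 14, against 33% of all measured genes. Their summed level was 945.3 FPKM in shJAM3 and 625.3 in shControl, of which TUBB gave 265.8 and 145.5. Tubulin genes are close in sequence and 16.0% of the TUBB exon bases lie under another gene, so single tubulin values are uncertain. The exception was TUBB2B, at 0.765 FPKM in shJAM3 and 2.70 in shControl, from 28 and 91 fragments. It counted as measured only through its level in shControl. Its log2 difference was -1.07, past the 2-fold rule, or -0.91 after centring on GC, which is not past it.

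Lattice-binding and minus-end proteins included the other listed gene past the rule. Of 21, 14 were measured, 4 higher and 10 lower, with a median of -0.16. With centring on GC, 11 of the 14 were lower and the median was -0.17. CAMSAP3, which caps minus ends, was at 8.98 FPKM in shJAM3 and 19.2 in shControl, a log2 difference of -1.02, or -0.52 after centring on GC, which is not past the rule. MAP1A was at 4.59 FPKM in shJAM3 and 9.89 in shControl, and MAP7D1 at 29.4 in shJAM3 and 53.3 in shControl. Mitotic and proliferation genes lay in the direction of MAPRE1 and STMN1, with 18 of 23 higher and a median of 0.28, beside 6167 of all 12214 measured genes higher and a median of 0.00. After centring on GC, 7 of the 23 were lower and the median was 0.18. MKI67, a proliferation marker, was at 23.2 FPKM in shJAM3 and 13.3 in shControl. In the other direction, BIRC5 was at -0.39, PLK1 at -0.32 and CDC20 at -0.22, all genes of mitosis chosen here after their values were seen. The part of proliferation in the MAPRE1 and STMN1 values was not tested.

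**Figure D4:**
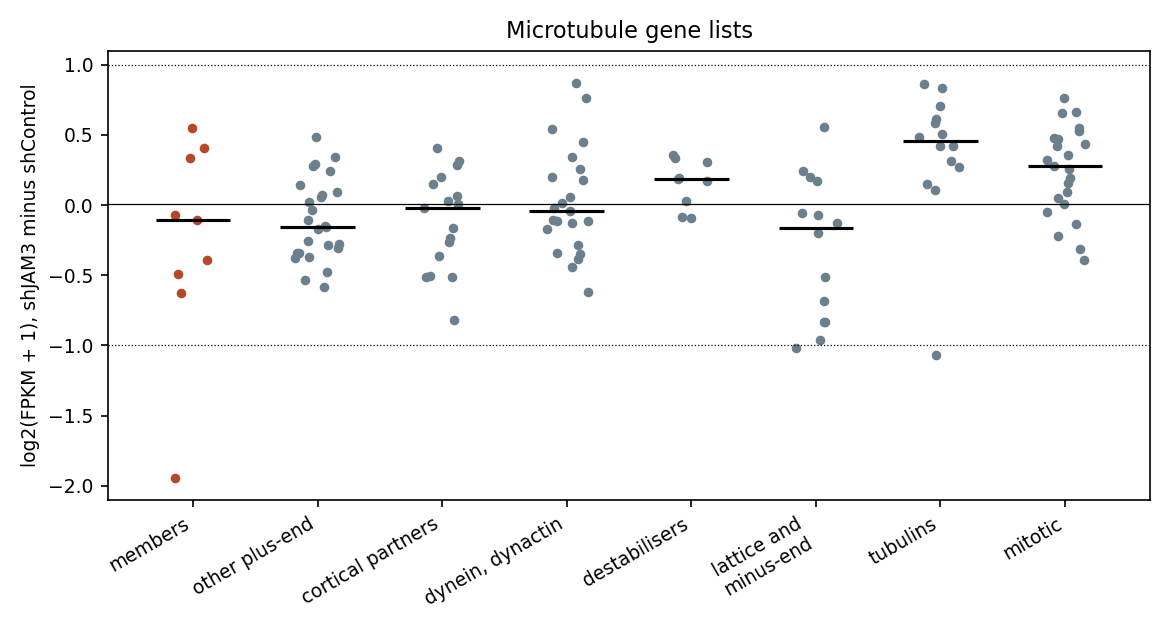
Log2(FPKM + 1) difference, shJAM3 minus shControl, of every measured gene in the 9 members and in 7 related lists, 1 point per gene, with bars at the medians and dotted lines at the 2-fold rule. CLIP2 is the lowest point at -1.95, and the tubulins have the highest median at 0.46.

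The genes around CLIP2 were also mostly lower in shJAM3, though less than CLIP2. Within 1 Mb of it on chromosome 7 the table holds 30 other protein-coding genes, of which 21 were measured, 3 higher and 18 lower. That is 85.7% lower, against 50.6% of measured protein-coding genes. Their median log2 difference was -0.37, and their median transcript GC was 57.5%. After centring on GC, the median was -0.17 and 14 of the 21 were lower. The closest measured protein-coding gene upstream, RFC2, a replication factor C subunit, was at 44.2 FPKM in shJAM3 and 46.0 in shControl, a ratio of 0.960 (0.895 to 1.03). The closest downstream, the transcription factor gene GTF2IRD1, was at 25.7 FPKM in shJAM3 and 45.9 in shControl, a ratio of 0.560 (0.534 to 0.587).

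Further out, the translation factor gene EIF4H was level at 180.0 FPKM in shJAM3 and 177.0 in shControl. LIMK1, given above among the cortical partners, lies 206.5 kb upstream with a ratio of 0.516 (0.463 to 0.575). CLDN4, a claudin of tight junctions that lies 489.9 kb upstream, was the 1 protein-coding neighbour past the 2-fold rule, at 11.7 FPKM in shJAM3 and 33.2 in shControl. STX1A had a ratio of 0.599 (0.509 to 0.704) and VPS37D a ratio of 0.392 (0.220 to 0.674) from 20 and 47 fragments. VPS37D, at 0.737 FPKM in shJAM3, counted as measured only through its level in shControl. DNAJC30, ABHD11 and EIF4H were the 3 higher, with ratios of 1.78, 1.29 and 1.02. The measured protein-coding genes between CLIP2 and the lower LIMK1 were thus near level, so the lower values did not form an unbroken stretch. Of the 7 measured neighbours that do not code for protein, 3 were past the 2-fold rule. They were MIR590 at -2.25 with 1 fragment in shJAM3 and 10 in shControl, MIR4284 at 1.69 with 3 fragments in shJAM3 and 0 in shControl, and the pseudogene STAG3L1 at 1.17 with 119 fragments in shJAM3 and 31 in shControl. GTF2I, GTF2IRD2B and NSUN5 have near-identical copies nearby, and their values are uncertain. Other annotated genes cover 21.5% of the STAG3L1, 14.4% of the DNAJC30 and 17.9% of the STX1A exon bases, so those values are uncertain too.

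**Figure D5:**
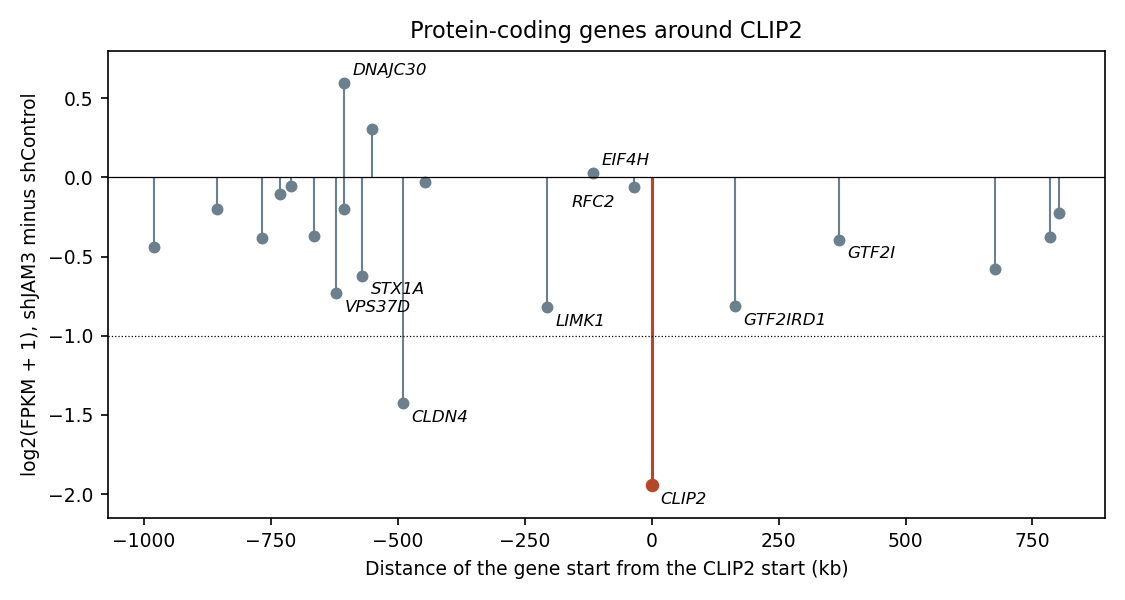
Log2(FPKM + 1) difference, shJAM3 minus shControl, of the measured protein-coding genes within 1 Mb of CLIP2, against the distance of each gene start from the CLIP2 start in kb. CLIP2 at -1.95 and CLDN4 at -1.42 lie beyond the dotted line of the 2-fold rule, and RFC2 and EIF4H beside CLIP2 lie near 0.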

How the data were processed

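Libraries were made from poly(A) RNA with random-hexamer priming and PCR, per the labels' protocols, which mention no molecular identifiers. The authors deposited FPKM for 58735 genes with gene lengths. HISAT2 2.0.5 and featureCounts 1.5.0-p3 are among the tools in the submitters' processing notes, which assign no roles. The sources used here do not give the build. All 58735 identifiers, positions and symbols equalled those of GENCODE release 29 (GRCh38), and all lengths equalled the union of annotated exons. FPKM times length fell on whole multiples of a fixed step in each library, for 100% of values above 0 (tolerance 0.001 fragments). The library sizes implied were 1.01 times the recovered total in shJAM3 and 0.987 times in shControl, so the FPKM carry a further scaling.

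Of rows sharing a symbol, that with the highest mean was kept, leaving out 1566. Differences are log2(FPKM + 1), shJAM3 minus shControl, and understate those of low genes. With 1 library per group no p-value was computed. Ratio limits are exact conditional binomial limits (scipy 1.17.1), and the size rule, limits and centring were tested on simulated data. Transcript GC came from GENCODE transcripts, for 10496 of 10499 measured protein-coding genes. Promoter sequences are RefSeq's (GRCh38.p14).

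The members and lists were chosen with earlier results of these data known. Named genes were the 9 members, their pseudogene and antisense relatives, JAM3, up to 4 genes per list furthest from 0 and any past the 2-fold rule, measured protein-coding neighbours of CLIP2, and the 2 genes on each side of CLIP2 in log2 difference. CLIP3, DCTN1, BIRC5, PLK1, CDC20, TUBG1, TUBG2, TUBD1, TUBE1, MIR590, MIR4284, STAG3L1 and the cell type markers were named outside these rules. Alternatives were a pseudocount of 0.1 FPKM, other scalings, filters, centring on GC or length, and 99% limits.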

Additional observations from a re-analysis of the deposited data

How the results depend on the processing

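No paired analysis was possible because each group has 1 library. The direction of all 9 members was kept under every alternative tried, and CLIP2 was the only member past the 2-fold rule under each. The CLIP2 log2 difference was -2.03 with a pseudocount of 0.1 FPKM and -1.56 after centring on transcript GC. The median of the members was -0.25 after centring on GC. Of the 45 member values recomputed, 36 stayed within counting error and 9 moved, all of these under the smaller pseudocount or GC centring. The members with limits that excluded 1 numbered 8 as deposited. CLASP1 lost that standing when scaled to total fragments and with 99% limits (0.834 to 1.02). Of the related lists, 2 genes (CAMSAP3 and TUBB2B) were past the 2-fold rule as reported, 5 with a pseudocount of 0.1 FPKM, 1 when scaled to total fragments, 1 at a mean of at least 5 FPKM, and 0 after centring on GC. The median of the lattice-binding list ranged from -0.51 to -0.06 with the filter on low values, and that of the cortical partners from -0.20 to 0.01 over all alternatives, so its sign is not fixed. Depth limits CLIP4 and MAPRE3 most, with 117 and 122 fragments in shJAM3.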
